A study of Drosophila melanogaster with 32 samples.

Results

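The fly cell lines R5 and R1 were compared at their first sampled passages. At a passage, part of a grown culture is moved to fresh medium. The comparison took the libraries whose titles name passages 2, 3 and 4, which gave 3 of R5 and 3 of R1, 6 of the 32 libraries of the series. The series' design text counts passage 4 as both early and intermediate; here it is early. The series followed 3 lines, R5, R4 and R1, by RNA sequencing while they turned into permanent lines. All cultures were grown in flasks in Schneider's medium with fetal serum and antibiotics, and total RNA depleted of ribosomal RNA was sequenced. Each line is represented by 1 culture, the passages are successive samples of it, and no source used here gives their origin or genotype. The question is how far the cultures differed before they were established. Passage number was kept as a block, so that each R5 library was set against the R1 library of the same passage.

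A young culture of fly cells holds whatever cell types survive plating and attach, and passaging keeps those that go on dividing. Hox genes encode homeodomain transcription factors that mark position along the body axis. Those of the Antennapedia complex act in the head and thorax, those of the bithorax complex in the posterior thorax and abdomen. Small nucleolar RNAs guide the chemical modification of ribosomal RNA, and in flies many are cut from the introns of host genes that code for no protein.

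The R5 libraries held 18213927, 11568912 and 11407375 counts at passages 2, 3 and 4, against 14116610, 16630402 and 9980187 in R1. Mitochondrial genes took 4.46 to 5.70% of the counts in R5 and 5.27 to 6.96% in R1, and ribosomal RNA entries took 5.62 to 6.76% in R5 and 5.72 to 6.67% in R1, so neither share separated the lines. On the first principal component of log2 scaled counts (CPM, the usual depth-scaled unit), with 42.6% of the variance, both lines moved the same way with passage. R5 lay at -41.3, -14.7 and 7.66 at passages 2, 3 and 4, and R1 at -3.53, 17.9 and 34.0, which put R5 at passage 4 between R1 at passages 2 and 3. On the second component (34.7%) R5 lay at 8.28, -21.5 and -34.6, and R1 at 30.1, 12.8 and 4.97.

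Of 8468 genes tested, 485 differed (5.73%) at an adjusted p under 0.05 (edgeR quasi-likelihood test, Benjamini-Hochberg over all genes). R5 was higher for 260 (3.07%) and lower for 225 (2.66%), and such genes are named as called below. The rises were the larger changes, with a median of 1.28 on the log2 scale, against 0.83 in size for the falls. A change of at least 4-fold was reached by 64 of the higher genes and by 23 of the lower ones. The direction was the same at all 3 passages for 484 of the 485. This count follows in part from the test, which calls genes whose gap was steady over the passages. The R5 and R1 libraries did not overlap for 371 called genes, or 76.5%, while they did not overlap for 2120 (25.0%) of all genes tested. Every log2 change below is R5 minus R1 with its standard error (SE), and levels are CPM scaled by trimmed mean of M values, given at passages 2, 3 and 4 in that order. The calls depended most on the passage 3 pair and least on the passage 4 pair. Without the R5 or the R1 library of passage 3 edgeR called no gene, with 1220 and 1206 genes at an unadjusted p under 0.05, and without the passage block it called 66. Without the passage 4 library of R5 or R1 it called 1144 or 1093. Those fits kept 252 or 250 of the 260 higher calls and 224 or 221 of the 225 lower ones.

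Among called genes with a mean of at least 10 CPM in the higher line, the largest rise belonged to Hand, a basic helix-loop-helix transcription factor of heart and blood-forming tissue. Hand had 64.5, 17.8 and 5.73 CPM in R5, against 0.499, 0.294 and 0.203 CPM in R1, a log2 change of 6.37 ± 0.30 (adjusted p = 0.000494, edgeR). Its level was lower at each later passage in both lines, and the lines did not overlap. Since Hand was under 1 CPM in all R1 libraries, it entered the test through its R5 levels alone. Leaving out the passage 2 library of R5 or R1 lowered the change to 5.55 or 5.603. Fam92, which encodes a membrane-bending protein found at the base of cilia, had 24.2, 74.8 and 79.0 CPM in R5, against 2.71, 0.646 and 0.508 CPM in R1 (5.30 ± 0.76, adjusted p = 0.0273). Its course was opposite in the lines, up in R5 and down in R1, and the change was 6.99 without either passage 2 library, and 4.616 or 4.598 without the passage 3 library of R5 or R1. The call for Fam92 was also lost without a passage 4 library (adjusted p = 0.385 without that of R5 and 0.388 without that of R1). Prm, the thick filament protein paramyosin, had 5.20, 52.6 and 93.3 CPM in R5, against 1.42, 3.41 and 3.05 CPM in R1 (3.90 ± 0.52, adjusted p = 0.0233). The gap was small at passage 2. Leaving out the passage 4 library of R5 or R1 brought Prm to 3.26 or 3.36 (adjusted p = 0.0963 and 0.207).

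Among the other large rises, Tep1, a complement-like thioester protein of fly immunity, had 35.1, 11.9 and 2.26 CPM in R5, against 4.99, 1.94 and 0.610 CPM in R1 (2.61 ± 0.22, adjusted p = 0.00269, edgeR). Here the groups overlapped across passages, since the level was lower at each later passage in both lines, but R5 was higher at each passage. The uncharacterized CG4793 went the same way, with 59.96, 14.1 and 2.35 CPM in R5, against 8.27, 1.47 and 0.712 CPM in R1 (2.86 ± 0.23). CG8157, also uncharacterized, had 34.2, 16.9 and 1.48 CPM in R5 and 5.20, 0.646 and 0.203 CPM in R1 (3.39 ± 0.42). For CG8157 the change ranged from 2.73 without a passage 3 library to 4.42 without the R1 library of passage 2. CR41535, a ribosomal RNA entry, had 8.21, 12.3 and 12.4 CPM in R5, against 1.28, 1.47 and 2.85 CPM in R1 (2.61 ± 0.27). Ribosomal RNA was depleted before sequencing, and uneven depletion cannot be told apart from a difference between the lines for such an entry.

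The 10 largest falls among called genes with at least 10 CPM in the higher line were led by Ubx, described with the Hox genes below. Nplp1, a neuropeptide precursor, had 6.28, 5.59 and 3.47 CPM in R5, against 30.99, 22.2 and 52.7 CPM in R1 (-2.69 ± 0.39, adjusted p = 0.0282, edgeR). For jp, the fly junctophilin, which ties the endoplasmic reticulum to the plasma membrane, the levels were 12.6, 15.7 and 37.8 CPM in R5, against 103.9, 103.7 and 120.8 CPM in R1 (-2.47 ± 0.29). The Smad-like gene exp, named for its part in tracheal tube size, had 3.59, 3.42 and 1.82 CPM in R5 and 30.4, 13.8 and 9.25 CPM in R1 (-2.52 ± 0.25). None of these overlapped between the lines. Cda4, a chitin deacetylase-like gene, had 4.56, 9.64 and 14.3 CPM in R5, against 21.6, 33.8 and 76.2 CPM in R1 (-2.16 ± 0.15, adjusted p = 0.00132). The BTB transcription factor gene lov had 6.06, 7.12 and 11.9 CPM in R5, against 17.8, 35.9 and 68.2 CPM in R1 (-2.15 ± 0.20). Both had more transcript at each later passage in each line, and R5 lay below R1 at every passage. The uncharacterized CG6398 (-2.57 ± 0.24) and CG15236 (-2.29 ± 0.38) and the T-box factor mid (-2.16 ± 0.28) made up the rest, with Pxn, which is given with the hemocyte genes. The levels of mid overlapped between the lines.

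**Figure D1:**
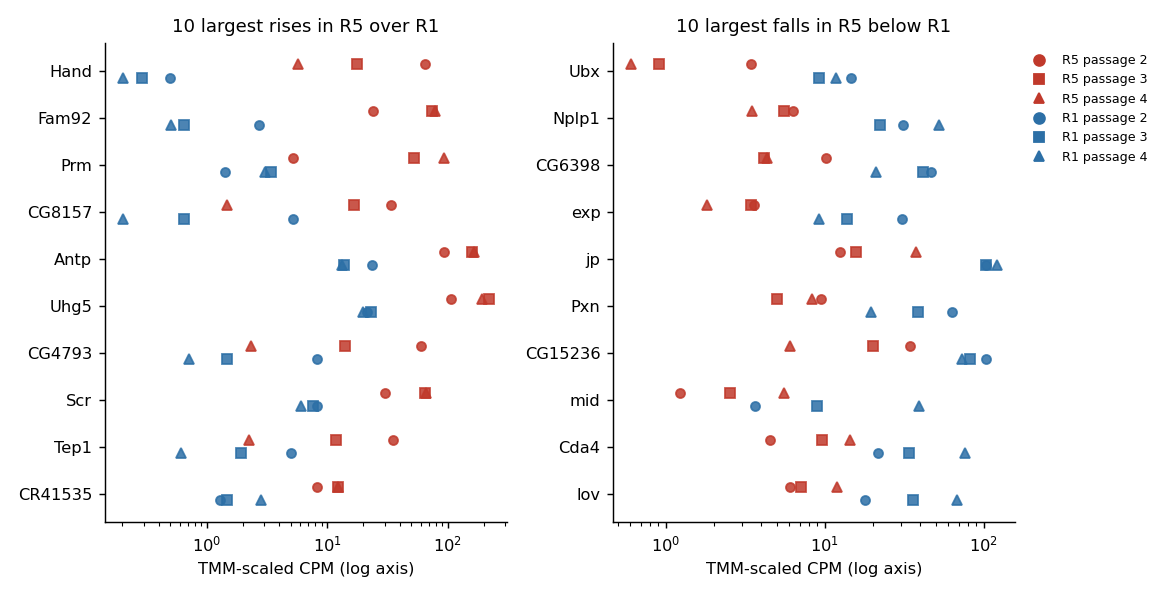
Levels of the 10 called genes with the largest rise and the 10 with the largest fall in R5 relative to R1, among those with a mean of at least 10 CPM in the higher line and 1 direction at all 3 passages, in CPM on a log axis, with 1 point per library (R5 red, R1 blue; the symbol gives the passage). Red and blue points are apart for most genes, and overlap for CG8157, CG4793, Tep1 and mid, whose levels changed strongly with passage in both lines.

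The Hox genes split by complex. Of 10 listed Hox genes and cofactors 8 were tested, and 3 were higher and 2 lower in R5 (62.5%, against 5.73% of all genes tested). The median log2 change was -0.32, against 0.0056 over all genes tested. Dfd, which specifies head segments, had 8.31, 10.8 and 8.60 CPM in R5, against 1.92, 1.06 and 1.63 CPM in R1 (2.60 ± 0.31, adjusted p = 0.00797, edgeR). Scr, which acts in the last head segment and the first thoracic one, had 30.4, 65.0 and 65.9 CPM in R5, against 8.27, 7.69 and 6.10 CPM in R1 (2.78 ± 0.32, adjusted p = 0.0160). Antp, the thoracic gene, had 93.9, 160.7 and 167.1 CPM in R5, against 23.8, 13.8 and 13.4 CPM in R1 (3.03 ± 0.37, adjusted p = 0.0201). These are the called members from the Antennapedia complex, and none overlapped between the lines. Antp lost its call without the passage 4 library of R5 (2.74, adjusted p = 0.329) or R1 (2.75, adjusted p = 0.341), and Scr without that of R1 (2.502, adjusted p = 0.0501).

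The bithorax complex went the other way. Ubx, of the posterior thorax and first abdominal segment, had 3.43, 0.901 and 0.608 CPM in R5, against 14.7, 9.22 and 11.8 CPM in R1 (-2.98 ± 0.41, adjusted p = 0.0160, edgeR). Without the R5 or the R1 library of passage 2 the Ubx change was -3.77 or -3.78. abd-A, of the middle abdomen, had 69.6, 56.0 and 56.2 CPM in R5, against 162.9, 175.5 and 85.1 CPM in R1 (-1.17 ± 0.20, adjusted p = 0.0367). The lines did not overlap for either gene, but without the passage 2 library of R5 or R1 the adjusted p of abd-A was 0.119 or 0.0776. Abd-B, of the posterior abdomen, was low in both, with 1.34, 0.811 and 0.695 CPM in R5 and 2.78, 1.76 and 1.12 CPM in R1 (-0.98 ± 0.36, adjusted p = 0.164). The cofactors exd (-0.20 ± 0.09, adjusted p = 0.237) and hth (-0.44 ± 0.11, adjusted p = 0.0682) did not pass the test, and lab and pb were too low to be tested. R4, a line outside the comparison, had 34.4, 26.5 and 6.04 CPM of Antp and 6.00, 1.19 and 0.166 CPM of Ubx.

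**Figure D2:**
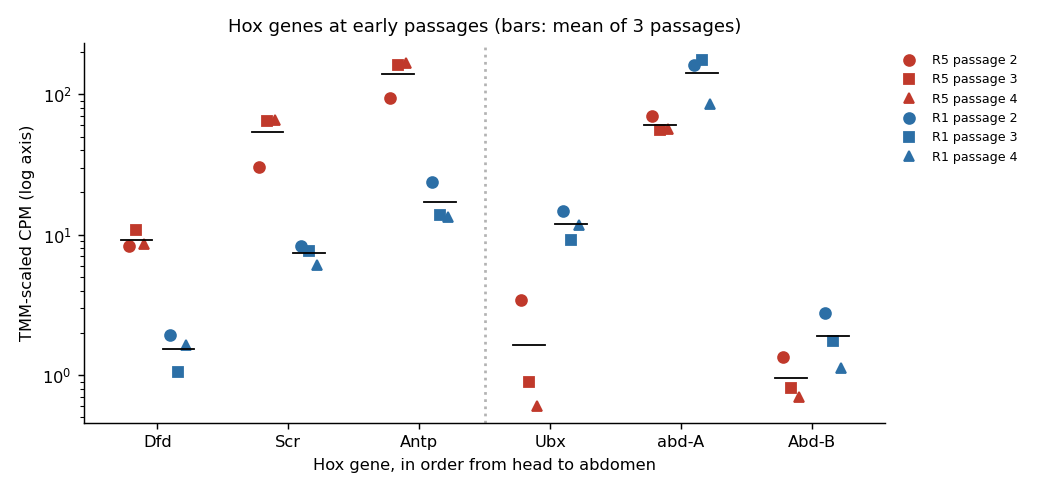
Levels of 6 Hox genes in CPM on a log axis, with 1 point per library (R5 red and left, R1 blue and right) and a bar at the mean of the 3 passages; the dotted line parts the Antennapedia complex from the bithorax complex. Dfd, Scr and Antp lie higher in R5, Ubx and abd-A lower, and Abd-B is low in both lines.

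Other transcription factors of body pattern also differed. Of 53 listed, 26 were expressed enough to be tested, with 5 higher and 3 lower in R5 (30.8%, against 5.73% of all genes). Their median was 0.48. The head gap gene oc had 4.99, 8.56 and 14.7 CPM in R5, against 0.641, 0.411 and 0.407 CPM in R1 (4.08 ± 0.43, adjusted p = 0.00466, edgeR), and the change was 4.70 without either passage 2 library. The homeodomain gene unpg, known from the ventral nerve cord, had 65.4, 108.9 and 102.4 CPM in R5, against 17.0, 15.6 and 20.03 CPM in R1 (2.37 ± 0.17, adjusted p = 0.00269). Doc1, a T-box gene of the dorsal ectoderm and heart, had 5.52, 2.70 and 1.22 CPM in R5, against 0.214, 0.294 and 0.203 CPM in R1 (3.62 ± 0.50, adjusted p = 0.0122). Leaving out the passage 2 library of R5 or R1 brought Doc1 to 2.95 or 2.96 (adjusted p = 0.0543 and 0.0604). Both oc and Doc1 stayed under 1 CPM in all R1 libraries and entered the test through R5 alone. The direction of these members, and so the share called, follows in part from that filter. The eye gene so (1.28 ± 0.20) and the GATA factor pnr (1.61 ± 0.26) were higher in R5 as well. Lower in R5 were mirr (-1.50 ± 0.17), mid and the gap gene Kr. The other Iroquois genes listed beside mirr went the other way but were not called, ara (2.23 ± 0.67, adjusted p = 0.132) and caup (2.06 ± 0.57, adjusted p = 0.121). Kr had 5.10, 5.14 and 3.13 CPM in R5, against 11.4, 14.3 and 16.2 CPM in R1 (-1.63 ± 0.25, adjusted p = 0.0175).

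Genes of muscle did not move as 1 group. In bulk RNA, fewer cells of a type and less RNA per cell cannot be told apart, here and for all cell type lists. Of 27 listed sarcomere and contraction genes 18 were tested, and 4 were higher and 1 lower in R5. These were 27.8%, against 5.73% of all genes, and the median was -0.03. Beside Prm, Mlc2, a myosin regulatory light chain, had 28.9, 43.4 and 41.2 CPM in R5, against 16.0, 13.8 and 17.4 CPM in R1 (1.25 ± 0.16, adjusted p = 0.0110, edgeR). Obsc, a giant protein of the sarcomere's M-line, had 5.52, 8.38 and 13.6 CPM in R5 and 1.07, 2.35 and 5.49 CPM in R1 (1.78 ± 0.27, adjusted p = 0.0167). wupA, which encodes troponin I, had 3.86, 4.33 and 12.9 CPM in R5 and 1.43, 2.11 and 4.17 CPM in R1 (1.37 ± 0.26, adjusted p = 0.0305). The member that fell was Act87E, a muscle actin, with 25.4, 33.0 and 28.1 CPM in R5, against 50.6, 72.3 and 70.8 CPM in R1 (-1.15 ± 0.11, adjusted p = 0.00335). Act87E has near-identical actin copies, so its reads are uncertain. When the R1 library of passage 2 was left out, Obsc (1.56, adjusted p = 0.0591) and wupA (1.34, adjusted p = 0.113) lost their calls, and wupA also without that of R5 (1.34, adjusted p = 0.0890). Mhc, the muscle myosin heavy chain, stood at 3.27, 2.25 and 2.35 CPM in R5 and 2.78, 1.94 and 2.44 CPM in R1 (0.14 ± 0.29, adjusted p = 0.814).

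Among 16 tested genes of muscle specification and myoblast fusion, 1 was higher and 2 were lower (18.75%, against 5.73% of all genes). Their median was -0.09. Poxm, a paired-box factor of muscle progenitors, had 103.8, 120.4 and 132.6 CPM in R5, against 55.0, 54.3 and 48.2 CPM in R1 (1.17 ± 0.12, adjusted p = 0.00443, edgeR). kirre, the adhesion receptor by which founder myoblasts attract fusion partners, had 72.8, 106.1 and 120.0 CPM in R5, against 137.4, 195.1 and 339.8 CPM in R1 (-1.10 ± 0.14, adjusted p = 0.0110). slou, a muscle identity homeobox gene, had 14.9, 29.7 and 37.0 CPM in R5, against 39.2, 51.2 and 55.1 CPM in R1 (-0.91 ± 0.17, adjusted p = 0.0334). None of these overlapped, and slou lost its call without the R1 library of passage 2 (-0.68, adjusted p = 0.0591). Him, which holds muscle precursors undifferentiated, had 52.5, 40.9 and 24.8 CPM in R5 and 28.6, 19.4 and 6.91 CPM in R1 (1.21 ± 0.19, adjusted p = 0.0215). It was the only one called of 9 mesoderm and muscle precursor genes tested (11.1%, median 0.24). The mesoderm regulator twi, with 97.9, 130.2 and 146.2 CPM in R5 and 83.2, 94.6 and 82.5 CPM in R1, missed the threshold (0.51 ± 0.12, adjusted p = 0.0627). So did the muscle factor Mef2 (-0.23 ± 0.12, adjusted p = 0.292).

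Of 9 glial genes tested 2 were higher and none lower in R5, and of 5 fat body genes 1 was higher. These were 22.2% and 20%, against 5.73% of all genes tested. alrm, a gene of astrocyte-like glia, had 138.1, 71.2 and 32.8 CPM in R5, against 22.5, 11.5 and 5.90 CPM in R1 (2.58 ± 0.10, adjusted p = 0.000368, edgeR). repo, the homeodomain factor that defines glia, had 6.33, 3.97 and 3.65 CPM in R5, against 0.713, 0.822 and 0.610 CPM in R1 (2.66 ± 0.35, adjusted p = 0.0103). Neither overlapped. The median of the glial list was 0.02, and at an unadjusted p under 0.05 it held 2 higher and 2 lower members, the lower ones being moody (-0.53 ± 0.19, adjusted p = 0.175) and nrv2 (-0.30 ± 0.10, adjusted p = 0.132). fon, a clotting protein made by the fat body, had 47.6, 8.11 and 1.82 CPM in R5, against 9.33, 1.70 and 0.305 CPM in R1 (2.33 ± 0.18, adjusted p = 0.00225). It was the called member of the fat body list (DESeq2 1 higher and 1 lower). The median of that list was 1.11, and 4 of the 5 changes were above 0. At an unadjusted p under 0.05 (edgeR), 3 members were higher and 0 lower. The iron carrier Tsf1 had -0.63 ± 0.26 (adjusted p = 0.226). The larval serum proteins Lsp1alpha, Lsp1beta, Lsp1gamma and Lsp2 stayed under 1 CPM in all 6 libraries. The summed level of the 10 listed fat body genes ran from 303.6 to 689.5 CPM in R5 and from 316.6 to 426.2 CPM in R1.

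Of 23 listed antimicrobial and stress peptide genes 6 were tested, all with a log2 change above 0 (median 1.22). Of these, 3 were called (50%, against 5.73% of all genes tested). DESeq2 also called 3, and a fit of 31 libraries of the series called none. Drs, the antifungal peptide drosomycin, had 104.6, 17.3 and 18.7 CPM in R5, against 36.8, 9.57 and 9.86 CPM in R1 (1.13 ± 0.16, adjusted p = 0.0117, edgeR). IM33, an immune-induced peptide, had 49.6, 10.5 and 2.61 CPM in R5 and 8.84, 2.23 and 1.73 CPM in R1 (2.05 ± 0.34, adjusted p = 0.0284). PGRP-SC2, a peptidoglycan-cleaving amidase, had 5.52, 1.71 and 1.13 CPM in R5 and 0.784, 0.352 and 0.407 CPM in R1 (2.34 ± 0.42, adjusted p = 0.0266). PGRP-SC2 did not overlap between the lines, and Drs and IM33 did. PGRP-SC2 stayed under 1 CPM in all R1 libraries and so passed the expression filter through R5 alone. Leaving out the passage 2 library of R5 or R1 gave an adjusted p of 0.146 or 0.105 for IM33 and of 0.172 or 0.169 for PGRP-SC2. In the Toll and Imd pathways 1 gene was higher and 1 lower of 17 tested (11.8%). The NF-kappaB factor Dif rose by 0.73 ± 0.14 (adjusted p = 0.0385; 0.115 and 0.129 without the passage 2 library of R5 and of R1) and the serpin nec, an inhibitor of Toll activation, fell by 0.97 ± 0.15 (adjusted p = 0.0186).

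Of 15 hemocyte genes, those of fly blood cells, 1 was called (6.67%, near the 5.73% of all genes tested). DESeq2 called 2 higher and 1 lower (median 0.26). At an unadjusted p under 0.05, 5 were higher and 3 lower. Pxn, a peroxidase of the extracellular matrix that hemocytes secrete, had 9.55, 5.05 and 8.34 CPM in R5, against 63.3, 38.6 and 19.6 CPM in R1 (-2.33 ± 0.36, adjusted p = 0.0332, edgeR). Without the passage 2 library of R5 or R1 the Pxn change was -2.07 (adjusted p = 0.0831 and 0.0577). The hemocyte receptors Hml (0.38 ± 0.10, adjusted p = 0.0779) and NimC1 (0.26 ± 0.24, adjusted p = 0.577) and the GATA factor srp (0.01 ± 0.12, adjusted p = 0.960) did not pass the test. Nor did the prophenoloxidase genes PPO1 (1.69 ± 0.37, adjusted p = 0.0743) and PPO2 (1.49 ± 0.44, adjusted p = 0.132), the Runx factor lz (1.10 ± 0.29, adjusted p = 0.0791) and the surface protein gene He (1.01 ± 0.23, adjusted p = 0.0618). PPO1 had 140.6, 30.8 and 11.1 CPM in R5 and 22.7, 13.98 and 5.80 CPM in R1. The list's summed level ran from 536.3 to 1315 CPM in R5 and from 587.5 to 957.4 CPM in R1. Neuronal genes had 2 higher and none lower of 20 tested (10%), with DESeq2 3 and 0 (median 0.34). futsch, a microtubule-binding protein of axons, had 238.5, 392.9 and 504.8 CPM in R5, against 135.7, 150.6 and 252.3 CPM in R1 (1.07 ± 0.13, adjusted p = 0.00797). Rbp9, an RNA-binding protein of the ELAV family, was higher by 1.01 ± 0.15 (adjusted p = 0.0167), and elav itself by 0.23 ± 0.11 (adjusted p = 0.286). Of 11 neuroblast and proneural genes 1 was higher and 1 lower (18.2%). The Snail-family factor wor was higher (2.11 ± 0.35, adjusted p = 0.0221). The temporal factor cas was lower, with 14.1, 21.5 and 22.9 CPM in R5, against 40.1, 44.2 and 119.2 CPM in R1 (-1.65 ± 0.26, adjusted p = 0.0332). Both missed the threshold when the passage 2 library of R5 or R1 was left out, wor at adjusted p = 0.129 and 0.125 and cas at 0.0784 and 0.0528.

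In the remaining cell type lists, eya, a transcriptional cofactor of the somatic gonad and eye, was higher in R5 (1.32 ± 0.21, adjusted p = 0.0242, edgeR). It was 1 of 9 gonad genes tested (11.1%, against 5.73% of all genes). tj, the large Maf factor of gonad somatic cells, had 145.9, 137.7 and 116.9 CPM in R5, against 298.5, 233.6 and 111.4 CPM in R1. The gap was present at passages 2 and 3 and absent at passage 4 (-0.58 ± 0.22, adjusted p = 0.192). nanos, a translational repressor of the germline, was at most 3.15 CPM in R5 and 0.763 CPM in R1 (2.10 ± 0.38, adjusted p = 0.0266). It was 1 of 15 germline and piRNA genes (6.67%, near the share of all genes), and it passed the expression filter through R5 alone. obst-A, a chitin-binding protein, was higher (1.07 ± 0.19, adjusted p = 0.0249), 1 of 11 tracheal and cuticle genes (9.09%). Of 8 tested cuticle proteins of the Cpr family, Cpr51A was lower, with 4.08, 7.75 and 12.0 CPM in R5 and 15.1, 32.1 and 56.1 CPM in R1 (-2.06 ± 0.13, adjusted p = 0.000925). Cpr11A was higher (2.05 ± 0.41, adjusted p = 0.0497), which made 25% of the 8 called. Of 11 listed gut genes only LManII, a lysosomal mannosidase, was tested (0.40 ± 0.16, adjusted p = 0.196), and 4 had no read in any of the 6 libraries. Some of these calls were lost without the passage 2 library of R5 or R1, for nanos (adjusted p = 0.0697 and 0.0875) and Cpr11A (0.128 and 0.112), and for obst-A without that of R1 (0.0648).

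**Figure D3:**
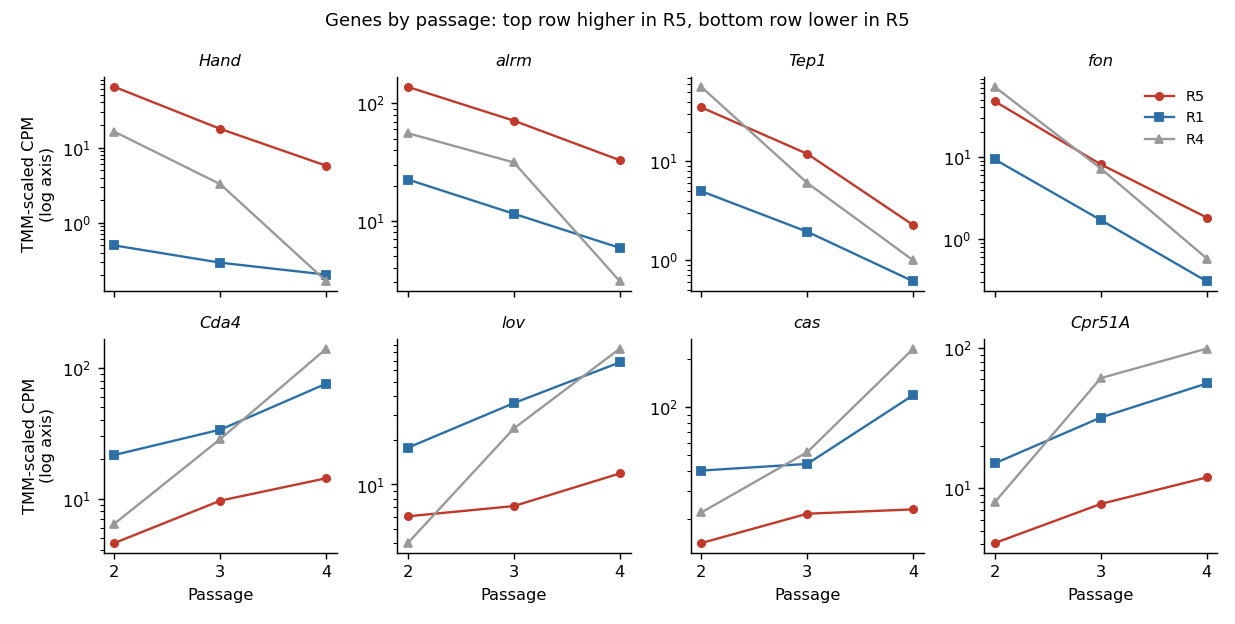
CPM on log axes at passages 2, 3 and 4 for 4 genes higher in R5 (top) and 4 lower in R5 (bottom), in R5 (red), R1 (blue) and, as a line outside the comparison, R4 (grey). Each top gene is lower and each bottom gene higher at each later passage in all 3 lines, and the red line lies above the blue one in the top row and below it in the bottom row. The genes were picked by hand and do not stand for all calls. Fam92 and Prm, for example, were higher in R5 and rose there with passage.

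The order of passages in R4, which did not enter the test, described the called genes further. Of the 260 genes higher in R5, 107 (41.2%) fell stepwise from passage 2 to 3 to 4 in R4 and 29 (11.2%) rose stepwise, on log2 CPM plus 0.5. Of the 225 genes lower in R5, 49 (21.8%) fell and 72 (32%) rose. Over all 8468 genes the shares were 26.7% falling and 24.3% rising. Among the 64 genes higher at least 4-fold, 35 (54.7%) fell stepwise in R4 and 4 rose. No test was made on these shares.

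In the signalling lists below 1 to 3 genes each were called, from 3.70% of those tested for Wnt, Hedgehog and Dpp to 20% for FGF and PDGF/VEGF, against 5.73% of all genes. The FGF ligands pyr and ths were both lower in R5. pyr had 17.5, 15.5 and 12.3 CPM in R5, against 36.1, 29.1 and 20.7 CPM in R1 (-0.91 ± 0.12, adjusted p = 0.00967, edgeR). ths had 11.6, 17.7 and 17.4 CPM in R5, against 28.5, 32.7 and 30.9 CPM in R1 (-1.004 ± 0.13, adjusted p = 0.0105). Neither overlapped between the lines, though pyr missed the threshold without the R1 library of passage 2 (-0.84, adjusted p = 0.0537). Their receptor gene htl stood at 331.2, 363.0 and 361.3 CPM in R5 and 280.7, 329.7 and 287.4 CPM in R1 (0.24 ± 0.10, adjusted p = 0.204). The ligands were the only called genes of 10 tested for FGF and PDGF/VEGF signalling (median -0.26). In the EGF receptor and ERK list, 2 of 21 tested genes were called, both lower (median -0.16). The secreted EGF receptor inhibitor aos had 345.7, 151.4 and 176.3 CPM in R5, against 476.1, 350.1 and 525.4 CPM in R1 (-1.08 ± 0.22, adjusted p = 0.0488). This call was marginal, and it was lost with limma, with either other scaling, with no filter or a stricter one, without the passage block and in the fit of 9 early libraries. The ETS antagonist edl had 118.3, 87.3 and 86.3 CPM in R5, against 146.4, 130.7 and 161.7 CPM in R1 (-0.60 ± 0.12, adjusted p = 0.0408).

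In the Notch pathway the ligand Delta was higher and 2 antagonists were lower, of 18 genes tested (median 0.04). Delta had 114.8, 63.4 and 61.5 CPM in R5, against 42.7, 42.1 and 30.5 CPM in R1 (1.01 ± 0.16, adjusted p = 0.0243, edgeR). H, the corepressor Hairless, had 32.2, 36.7 and 36.0 CPM in R5, against 65.9, 72.9 and 75.2 CPM in R1 (-1.03 ± 0.09, adjusted p = 0.00301). numb, which blocks the receptor in 1 daughter of an asymmetric division, was lower by a smaller step (-0.50 ± 0.10, adjusted p = 0.0379; 0.131 and 0.162 without the passage 2 library of R5 and of R1). The receptor N itself had 378.8, 408.1 and 367.1 CPM in R5 and 314.7, 332.0 and 290.7 CPM in R1 (0.30 ± 0.09, adjusted p = 0.119). Single called members were the Wnt receptor fz2 (0.77 ± 0.16, 1 of 27 genes of the Wnt, Hedgehog and Dpp list) and the JAK/STAT ligand upd3 (1.13 ± 0.17, 1 of 8). The kinase fj of Fat signalling was higher (1.59 ± 0.27, 1 of 15 in the Hippo list; adjusted p = 0.0647 and 0.0924 without the passage 2 library of R5 and of R1). In the ecdysone list, the hormone-induced ImpE1 was higher (2.09 ± 0.33) and the nuclear receptor Eip75B lower (-0.74 ± 0.10), of 15 tested. Of these 15, 3 had a log2 change above 0 (median -0.14). At an unadjusted p under 0.05 (edgeR), 1 was higher and 6 were lower, and DESeq2 called 1 higher and 4 lower.

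Genes of growth and structure that many cells share had few calls or none, where 5.73% of all genes were called. No gene was called by edgeR among 36 cell cycle genes (median 0.06; unadjusted p was under 0.05 for 5 higher and 0 lower genes; none by DESeq2). None of 86 ribosomal protein genes was called (median 0.07; 3 and 3 at an unadjusted p under 0.05; 1 higher by DESeq2), nor any of 12 glycolysis genes (1 and 0; none by DESeq2). Likewise none of 16 integrin adhesion genes was called (0 and 2; none by DESeq2), none of 5 chitinases (0 and 0; none by DESeq2), and none of 14 mitochondrially encoded genes (1 and 1; none by DESeq2). Of 19 epithelial polarity and junction genes edgeR called none, with 1 and 4 at an unadjusted p under 0.05, and DESeq2 called 2 lower. Of 15 basement membrane genes the integrin ligand Tig was higher, with 378.5, 584.3 and 762.0 CPM in R5, against 283.4, 353.2 and 368.3 CPM in R1 (0.73 ± 0.14, adjusted p = 0.0318). Of 10 heat shock genes Hsp67Ba was lower (-0.85 ± 0.15, adjusted p = 0.0256). The abundant metabolic genes FASN1 and GstS1 were lower too. FASN1, the fatty acid synthase, had 1022, 1060 and 1071 CPM in R5, against 1627, 1514 and 1547 CPM in R1 (-0.57 ± 0.12, adjusted p = 0.0382). GstS1, a glutathione S-transferase, had 415.2, 566.4 and 558.8 CPM in R5, against 1510, 1413 and 1318 CPM in R1 (-1.47 ± 0.15, adjusted p = 0.00469). The calls for Hsp67Ba and FASN1 were lost when a passage 2 library was left out, at adjusted p = 0.0863 (R5) and 0.123 (R1) for Hsp67Ba, and at 0.180 (R5) and 0.196 (R1) for FASN1.

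**Figure D4:**
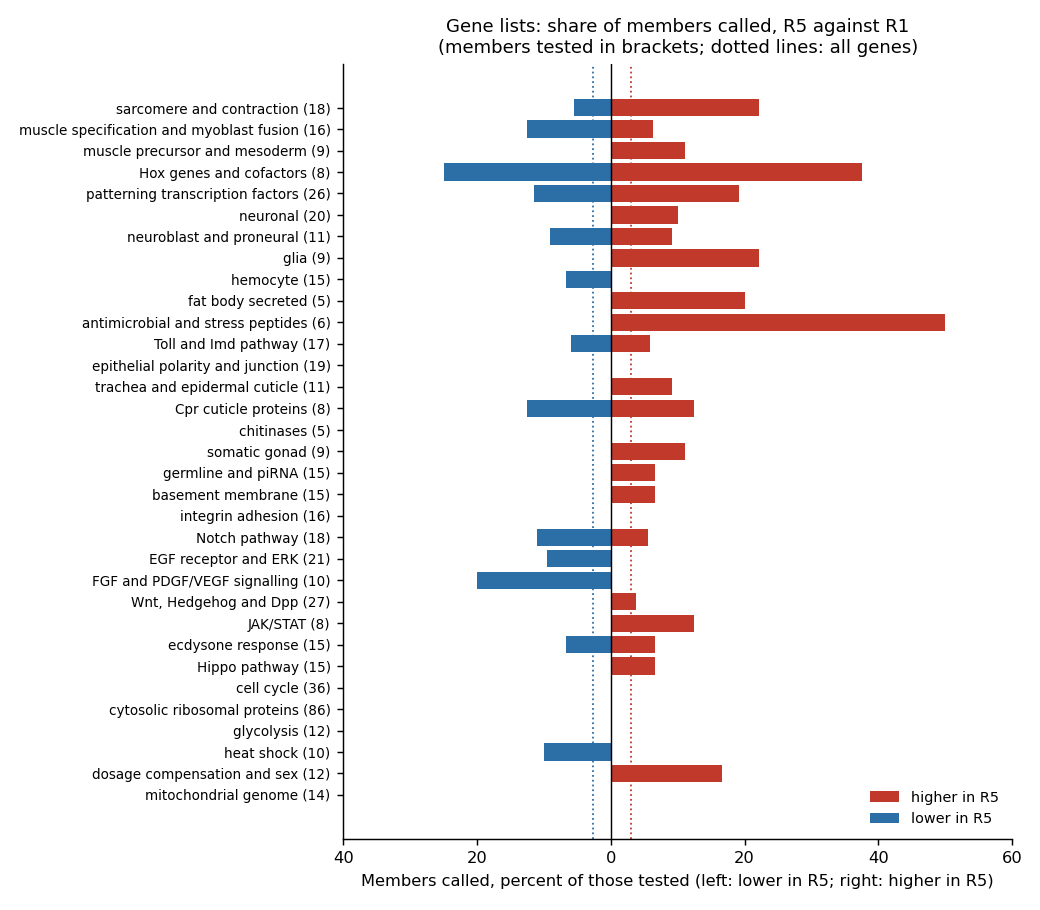
Share of the tested members of each gene list that were called, in percent, higher in R5 to the right (red) and lower in R5 to the left (blue), with the number tested in brackets; dotted lines mark the shares over all genes, 3.07% higher and 2.66% lower. Hox genes and antimicrobial peptides have the longest bars, each from few genes, and the lists of cell cycle, ribosomal protein and glycolysis genes have none.

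Dosage compensation in flies raises transcription of the single male X chromosome through a complex held by the RNAs roX1 and roX2. roX1 had 1193, 1644 and 1324 CPM in R5, against 852.8, 884.9 and 698.3 CPM in R1 (0.77 ± 0.13, adjusted p = 0.0243, edgeR; 0.0507 without the R1 library of passage 2). roX2 had 193.5, 189.0 and 201.5 CPM in R5 and 166.4, 194.2 and 282.9 CPM in R1 (-0.10 ± 0.14, adjusted p = 0.715). The sex determination gene fru was higher (0.57 ± 0.10, adjusted p = 0.0232), and Sxl was not called (0.28 ± 0.15, adjusted p = 0.308). roX1 and fru were the called members of 12 tested (16.7%, against 5.73% of all genes). The 1437 tested genes of the X had a median log2 change of 0.04, with 53 (3.69%) higher and 29 (2.02%) lower. The shares called on the other large arms ran from 4.76 to 6.34%, against 5.71% on the X.

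Among RNA classes, small nucleolar RNAs and ribosomal RNA entries were called more often than protein-coding genes, a pattern noticed after the values were seen and not tested. Of 136 tested small nucleolar RNAs 37 were higher and 3 lower in R5 (29.4%, median 0.43), and of 34 tested ribosomal RNA entries 10 were higher and none lower (29.4%, median 0.64). DESeq2 called 16 ribosomal RNA entries higher, the fit without the passage block 5 and the 31-library fit 3. Their summed level was 60773, 70438 and 55706 CPM in R5, against 64929, 55822 and 67725 CPM in R1, so the sum was lower in R5 at passages 2 and 4. The mitochondrial ribosomal RNA mt:lrRNA, the top entry of each library, alone took 3.99, 4.11 and 3.20% of the counts in R5. In R1 it took 4.83, 3.83 and 5.06%. The sum therefore need not show the direction of the other ribosomal RNA entries. Uneven removal of ribosomal RNA before sequencing cannot be told apart from a difference between the lines. Of 8174 protein-coding genes 204 were higher and 221 lower (5.20%), and of 70 other noncoding RNAs 3 were higher and none lower (4.29%; DESeq2 7 and 1). The summed small nucleolar RNA level was 15091, 23424 and 17951 CPM in R5, against 13823, 16714 and 15174 CPM in R1, so the lines overlapped. Many of these RNAs exist in near-identical copies, whose reads the counting may have split. Without the passage block 1 small nucleolar RNA was called higher, and in a fit of 31 libraries 27 were higher and 1 lower. The most abundant called genes were snoRNA:Psi28S-291, with 3593, 5877 and 4633 CPM in R5, against 2545, 2875 and 2850 CPM in R1 (0.74 ± 0.16, adjusted p = 0.0417, edgeR), and the ribosomal RNA entry CR40734 (0.81 ± 0.12, adjusted p = 0.0169). Both missed the threshold without a passage 2 library, at 0.0945 (R5) and 0.130 (R1) for snoRNA:Psi28S-291 and at 0.0518 (R5) and 0.0821 (R1) for CR40734.

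The host genes of small nucleolar RNAs differed more. Uhg5 had 106.1, 218.7 and 193.2 CPM in R5, against 21.5, 23.1 and 19.9 CPM in R1 (2.94 ± 0.22, adjusted p = 0.00443, edgeR). Uhg4 had 46.9, 82.5 and 73.9 CPM in R5, against 18.03, 19.1 and 19.4 CPM in R1 (1.81 ± 0.16, adjusted p = 0.00335). Uhg2 (1.64 ± 0.18) and Uhg8 (1.28 ± 0.16) were also higher. Uhg1 had 192.1, 340.2 and 283.2 CPM in R5 and 142.4, 131.8 and 98.6 CPM in R1 and missed the threshold (1.11 ± 0.23, adjusted p = 0.0585). The lines did not overlap for any of these 5, the Uhg genes tested of 6 listed in the files. In R4 the sum of the Uhg genes was 171.5, 129.3 and 127.2 CPM, against 385.7, 704.4 and 609.2 CPM in R5 and 201.5, 194.3 and 157.0 CPM in R1.

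At passages 16, 17 and 19 the lines differed at 3138 of 8797 genes (35.7%) in a fit of 12 libraries without a passage block, a count that cannot be set against the early one because the fits differ in form. Of the 260 genes higher in R5 at first, 126 were higher and 14 lower at the late passages. Of the 225 lower ones, 111 were lower and 22 higher. These 237 genes in the same direction were 48.9% of the early calls and 7.99% of the late calls among the 8468 genes. The change of the difference itself was called for 117 of the early calls (24.1%), against 12.3% of those 8468 genes. Over all 8797 genes it was called for 12.5%, with 6.32% more positive and 6.17% more negative at the late passages. The early calls were picked on the early gap, which is itself a term of this test. Their higher share therefore follows in part from that choice. Antp kept its gap, with a late range of 57.7 to 220.5 CPM in R5 and 10.2 to 17.5 CPM in R1, and so did Uhg5, with 90.4 to 327.9 CPM in R5 and 18.04 to 19.5 CPM in R1. Fam92 stood at 27.3 to 100 CPM in R5 and 0.610 to 0.835 CPM in R1. Prm stood at 45.6 to 135.8 CPM in R5, against 0.775 to 1.34 CPM in R1. Hand was at most 0.444 CPM in R5 and 0.0835 CPM in R1, and alrm at most 0.887 CPM in R5 and 1.01 CPM in R1.

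**Figure D5:**
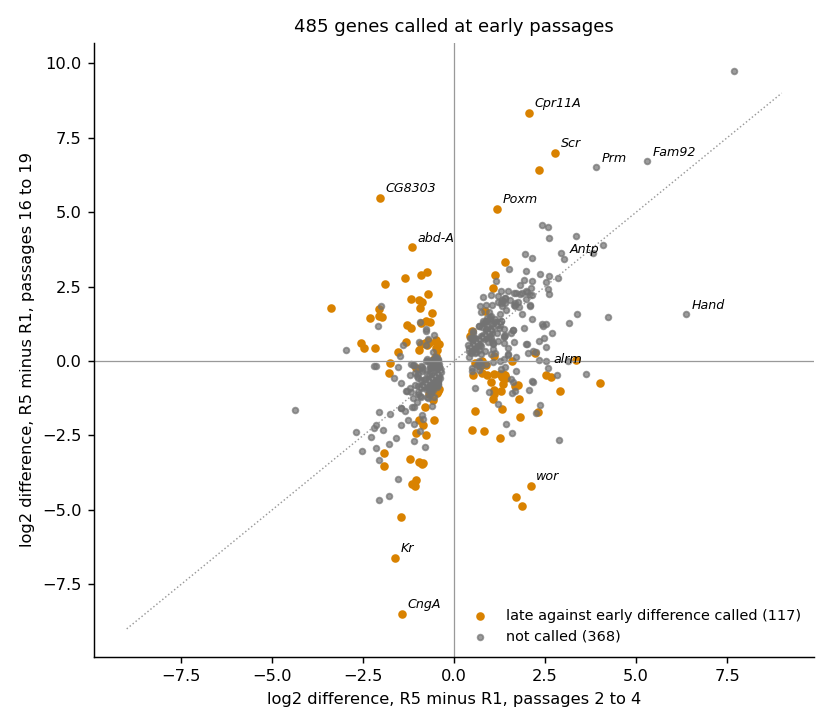
Log2 difference of R5 minus R1 at passages 16 to 19 (vertical) against that at passages 2 to 4 (horizontal) for the 485 genes called at the early passages, each dot a gene; orange marks the 117 whose difference changed between stages, and the dotted line marks equal differences. Scr, Poxm and Cpr11A lie above the line, Kr and CngA below it, and wor, CG8303 and abd-A have crossed zero.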

How the data were processed

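A mammalian Ribo-Zero kit removed ribosomal RNA before ScriptSeq v2 libraries were made and sequenced, per the labels' protocols. The deposited files hold raw counts, 1 count per gene and library. The submitters' processing notes name TopHat 1.4.1, Bowtie 0.12.8, bedtools and the builds BDGP5 and dm3; no source used here gives the roles of the tools, the counting rule or the strand setting, which leaves reads of overlapping genes, antisense partners and near-identical copies uncertain. Of 15253 entries per file, 2 carry no gene name. They took 0.0137 to 0.0172% of the counts of the 6 libraries and were left out. Current symbols and chromosome arms came from the BDGP6.54 annotation (250 of 15251 genes kept the file's name); no coordinates are printed.

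Genes with a CPM of at least 1 in at least 3 of the 6 libraries were tested with edgeR 4.0.16 in R 4.3.3 (TMM scaling, quasi-likelihood F test with robust estimation), with passage as block and line as factor, with 2 residual degrees of freedom. Genes such as Hand, oc, Doc1, repo, nanos, PGRP-SC2 and CG43060 were under 1 CPM in all R1 libraries and passed this filter through R5 alone. The direction of their difference therefore follows in part from the filter. Across genes, which are not independent, deviations from the line means were correlated between R5 and R1 libraries. For libraries of the same passage the values were 0.614, 0.111 and 0.439 at passages 2, 3 and 4. Between different passages they ran from -0.622 to 0.224, the highest for R5 at passage 4 with R1 at passage 3. The pairing was thus weak at passage 3, where another passage gave a higher value. The p-values of this test measure how the gap between R5 and R1 varied over the 3 passages, with 1 culture per line. They do not measure the spread between cultures. The late against early test used 12 libraries in 4 groups with 8 residual degrees of freedom. Having no block, it measures the spread between passages within each group, again not between cultures. On simulated counts of this comparison (8365 genes) 79% of genes changed 2-fold and 98% of those changed 4-fold were recovered, with 17 false among 194 calls. The simulation gave both lines the same passage effect for each gene, a closer pairing than the data showed. Its rates therefore need not hold for the data.

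Alternatives were other scalings and filters, DESeq2 1.42.0, limma 3.58.1, other sets of libraries, no block, and leaving out each library. The 34 gene lists were written from general knowledge and, like the comparison, chosen with earlier results of these data known. Named genes are the 10 largest rises and falls among called genes of 1 direction at all 3 passages and at least 10 CPM in the higher line, up to 3 called members of each list (or the one with the smallest p), 9 genes named in every case, the 5 most abundant called genes, and 4 each way with the largest change of the difference at late passages. Dfd, Mlc2, Act87E, so, pnr, mirr and the Uhg genes other than Uhg5, and uncalled list members, were named after their values were seen.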

Additional observations from a re-analysis of the deposited data

Results flagged for a closer look

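For 25 of the genes named above, the difference between R5 and R1 was not the same at passages 16 to 19 as at passages 2 to 4, by a test of that change itself (edgeR, 12 libraries, adjusted p under 0.05; 12.5% of 8797 genes passed it). These genes were picked on the early gap, a term of this test, and some on the change itself. Their number therefore cannot be set against that share. Values are late minus early differences on the log2 scale, and positive means that R5 gained relative to R1. The cause was not tested.

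Scr changed by 4.15 (5.04 without R1 at passage 16), with 63.9 to 97.8 CPM in late R5 and 0.0835 to 1.22 CPM in late R1. Poxm changed by 3.95, with 135.4 to 164.0 CPM in late R5 and 2.42 to 6.27 CPM in late R1. Cpr11A changed by 6.34, between 4.86 without R5 at passage 19 and 7.29 without R1 at passage 19, and was not called without R1 at passage 3 (5.88). abd-A changed by 5.05 and CG8303 by 7.60, but both stood at or near 0 in late R1 (at most 0.174 and 0.251 CPM), so the sizes rest on few reads. For abd-A the value was 7.72 without R1 at passage 16, and the call was lost without R5 at passage 16 or 17 (4.93, 4.57) or R1 at passage 17 or 19 (4.50, 4.55). For CG8303 it ranged from 6.99 without R5 at passage 16 to 10.78 without R1 at passage 19. At the early passages CG8303 had 3.49, 2.97 and 3.04 CPM in R5, against 18.3, 15.7 and 6.71 CPM in R1, a change of -2.03 ± 0.29 (adjusted p = 0.0137, and 0.0821 without R1 at passage 2). Other gains were those of CG6398 (3.14, or 3.73 without R5 at passage 2), jp (2.75, or 3.39 without R5 at passage 4, and not called without R1 at passage 17, 2.54), Pxn (3.85) and upd3 (1.77). slou gained 3.72 but lost its call without any 1 of R5 at passages 2, 3, 16 and 17 or any R1 library (2.86 without R5 at passage 17, adjusted p = 0.0907). pyr gained 1.51, and its call was lost without R5 at passages 3, 4, 17 or 19 or R1 at passages 2, 3, 16 or 17 (1.19 to 1.57).

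The largest shift against R5 was that of CngA, a cyclic nucleotide-gated channel, by -7.10 (-7.79 without R5 at passage 17). CngA had 26.0, 27.2 and 14.3 CPM in early R5 and 62.0, 54.8 and 60.7 CPM in early R1 (-1.43 ± 0.21, adjusted p = 0.0223, and 0.0556 without R5 at passage 2), and 0.555 to 2.81 CPM in late R5 against 535.0 to 608.1 CPM in late R1. Kr shifted by -4.98 (-5.64 without R5 at passage 16), with 0.665 to 2.10 CPM in late R5 and 107.2 to 135.5 CPM in late R1. Nmdar2, a glutamate receptor subunit, shifted by -6.36 (-5.69 without R5 at passage 2). Its early levels were 27.1, 14.3 and 5.73 CPM in R5 and 6.77, 3.76 and 2.95 CPM in R1 (1.71 ± 0.24, adjusted p = 0.0117, and 0.0634 and 0.0642 without the passage 2 library of R5 and of R1), and its late levels 0.210 to 0.675 CPM in R5 and 7.23 to 11.6 CPM in R1. The uncharacterized CG9686 shifted by -4.03 (-4.89 without R5 at passage 16), from an early change of 2.32 ± 0.21 (adjusted p = 0.00335). wor shifted by -6.30, between -5.30 without R5 at passage 2 and -8.53 without R5 at passage 19, with -7.07 without R1 at passage 2, and lost its call without R5 or R1 at passage 17 (-5.85, -5.99). wor was at most 0.111 CPM in late R5 and 1.16 CPM in late R1.

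repo shifted by -3.19, Obsc by -2.92 (-3.68 without R1 at passage 4) and eya by -2.81 (-3.41 without R1 at passage 2), and the last 2 lost their calls without R1 at passage 3 (-2.77 and -2.72). Smaller shifts were those of fj (-1.58), Hsp67Ba (-1.27), fz2 (-1.19), roX1 (-0.76), edl (-0.71) and fru (-0.62). The call was lost without R1 at passage 16 for roX1 (-0.70) and without R1 at passage 3 for fru (-0.61). For edl it was lost without R5 at passage 16 or 19 or R1 at passage 2, 3, 16 or 17 (-0.73 to -0.63), and for fz2 without R5 at passage 3 or 4 or R1 at passage 2, 3, 4, 17 or 19 (-1.24 to -1.02).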

How the results depend on the processing

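The number of genes called between R5 and R1 depended on the passage block, which fits the pairing of the passages. The 485 genes called (260 higher, 225 lower in R5) became 66 (36, 30) with no replicate block, 224 (122, 102) in a fit of the 9 early libraries with R4, and 833 (436, 397) with no filter. Leaving out 1 library gave 0 to 1144 called genes, 0 to 591 higher and 0 to 553 lower. The count was 0 without passage 3 of R5 or of R1, 1144 without passage 4 of R5, 1093 without passage 4 of R1, 351 without passage 2 of R5 and 263 without passage 2 of R1. Such a fit keeps 1 residual degree of freedom. The cause of these moves was not tested. Other scalings, a stricter filter, DESeq2 (662), limma (455), robust estimation off (490) and the 31-library fit (395) stayed within 1.5 times of 485, though of the main calls only 103 higher and 97 lower ones were called in the 31-library fit. No called gene changed sign in any of these fits. Of 72 called genes named by the rule, 72 were called by DESeq2, 44 in the 9-library fit, 34 in the 31-library fit, and 16 without the block: Fam92, Antp, Uhg5, Scr, CR41535, Nplp1, Poxm, oc, unpg, repo, H, fru, FASN1, GstS1, Kr and CG9686. limma put Hand at 5.36 and Doc1 at 2.88. roX2, not called, changed sign without passage 4 of R5 (0.0893) or of R1 (0.0937), in a range of -0.2642 to 0.0937 over the libraries left out. For the late against early change, 1099 genes (556 more positive, 543 more negative) became 1012 (541, 471) with a replicate block that pairs passages, which ended the calls of fru, fz2 and slou. Leaving out 1 library gave 621 to 1378 genes, 302 to 677 more positive and 319 to 701 more negative. With 1 culture per line and no molecular identifiers, depth limits low genes most: those under about 1 CPM rest on few reads, and Hand had at most 0.499 CPM in R1.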

Other observations

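Hand, Doc1 and pnr are also known as genes of the fly heart, and 12 cardiogenic genes were therefore listed after the values were seen, so their count is a description only. Of 7 expressed enough to be tested, 4 were higher and 1 lower in R5, where 5.73% of all genes were called. The median log2 change was 1.81, against 0.0056 over all genes. Hand and Doc1 passed the expression filter through R5 alone, so their direction follows in part from it. prc, the matrix protein pericardin around the heart tube, had 108.2, 29.2 and 8.43 CPM in R5, against 18.9, 4.52 and 2.24 CPM in R1 (2.47 ± 0.16, adjusted p = 0.000925, edgeR), and 206.9, 64.0 and 140.5 CPM in R4. Doc2 was at 5.04, 2.97 and 0.695 CPM in R5 and 0.926, 0.411 and 1.02 CPM in R1 (1.81 ± 0.65, adjusted p = 0.164), and the nuclear receptor gene svp at -0.13 ± 0.34 (adjusted p = 0.857). mid, a T-box gene of the heart and the ectoderm, was the one lower in R5. tin, the defining cardiac homeobox gene, had 5 reads over the 3 R5 libraries and 0 over the 3 of R1.

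The uncharacterized CG43060, chosen after its values were seen, had the largest fitted change of all called genes, 7.70 on the log2 scale (adjusted p = 0.00269, edgeR), but its mean in R5 was below 10 CPM and the size rests on 1 read in R1. The ratio of reads per total was 270.9, with an exact Clopper-Pearson 95% interval from 48.2 to 10740 that covers counting error only. It had 4.29, 8.65 and 8.51 CPM in R5 (274 reads in all), against 0.0713, 0 and 0 CPM in R1 (1 read in all), and no read in the 3 early libraries of R4.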
